A study of Mus musculus with 6 samples.

Results

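The genes described here are 10 heat shock chaperones and cofactors: Hspa1a, Hspa1b, Hspa8, Hsph1, Dnajb1, Hsp90aa1, Hspb1, Hspd1, Hspe1 and Bag3. They were listed by symbol, and all 10 had a row among the 23508 genes of the count table and passed the filter on low counts that left 16755 genes. RNA came from 6 mouse tumors of the mammary carcinoma line 4T1, a transplantable model of the triple-negative form of breast cancer. The series recorded nerve activity inside the tumors and asks how the transcriptome changes as that activity begins. It has 3 tumors collected before the activity first peaked (before-peak) and 3 collected on the day that it did (with-peak). The groups share the tumor line and differ in the labels only by collection before or with the peak, and the labels used here give no host strain, age, day of collection or other treatment. Whether each tumor came from its own animal is also not stated, so a p-value covers no more than the spread among these samples, which may be technical. The genes were chosen on the CPM values of these same 6 tumors, in which with-peak replicate 3 stood high. Their differences are therefore given as a description, without a test of their own.

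Heat shock proteins bind unfolded or partly folded proteins and keep them from aggregating until they fold, move or are degraded. The HSP70 proteins work in cycles set by J-domain partners such as Dnajb1 and by nucleotide exchange factors such as Hsph1 and Bag3, and HSP90 takes over many signaling clients from them. Under heat, oxidative stress or proteasome block, the factor HSF1 binds repeats of the short motif GAA, in alternating orientation, ahead of the inducible genes, whereas Hspa8 and the mitochondrial pair Hspd1 and Hspe1 are abundant also in unstressed cells. Tumor cells commonly rely on raised chaperone levels.

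The repeats that HSF1 recognises can be read in the promoters, of which RefSeq (GRCm38.p6) held 8 of the 10; Hspa8 and Hsp90aa1 had no entry. A window of 300 bases, 250 before and 50 after the start site, was searched on both strands for the inverted pairs GAANNTTC and TTCNNGAA, which can overlap by 3 bases. Where a gene had several windows, the one nearest the GENCODE start was used. Of the 8 windows, 6 held at least 1 such pair, as did 15.1% of the 32851 promoter windows searched. A run of 3 alternating units, that is GAANNTTC followed by NNGAA, or TTCNNGAA followed by NNTTC, stood in the windows of Hsph1 and Hspe1, against 0.603% of all windows. That of Hspe1 lies ahead of the start site, beginning at base -89. That of Hsph1 begins 37 bases into the transcript, counting the start site as 1. A separate pair of Hsph1 lies ahead of the start site, at base -33. The stretches below are the 150 bases before the start site in 4 of these genes: Hspa1a and Hspb1, which stood far above the other tumors in with-peak replicate 3, Hspe1, with the longest run of repeats, and Bag3, which did not stand out there. Capitals mark the GAA and TTC letters of each matched pair.
Hspa1a: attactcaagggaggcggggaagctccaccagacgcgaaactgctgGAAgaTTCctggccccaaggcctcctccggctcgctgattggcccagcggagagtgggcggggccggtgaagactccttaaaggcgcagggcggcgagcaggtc
Hspb1: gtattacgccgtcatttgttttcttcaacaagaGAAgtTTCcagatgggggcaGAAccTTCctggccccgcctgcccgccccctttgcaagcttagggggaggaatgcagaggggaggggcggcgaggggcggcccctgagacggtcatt
Hspe1: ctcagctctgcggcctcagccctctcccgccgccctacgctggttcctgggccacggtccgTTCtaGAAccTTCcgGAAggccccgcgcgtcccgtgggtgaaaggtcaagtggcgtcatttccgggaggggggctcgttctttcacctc
Bag3: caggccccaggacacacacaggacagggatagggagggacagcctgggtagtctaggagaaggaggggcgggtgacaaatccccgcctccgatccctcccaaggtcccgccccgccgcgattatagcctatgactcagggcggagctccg
They lie at chr17:34972157-34972306 (minus strand), chr5:135887769-135887918 (plus), chr1:55087998-55088147 (plus) and chr7:128523433-128523582 (plus). The matching stretch of Hspa1b, at chr17:34959239-34959388, equals that of Hspa1a at 149 of 150 bases. Hspe1 and Hspd1 are transcribed away from each other. A second RefSeq window of Hspd1, not the one used for the counts above, reads the same run of repeats from the other strand. The Bag3 stretch holds no pair, and its only match begins 43 bases into the transcript, counting the start site as 1. No pair was found in the windows used for Dnajb1 and Hspd1. A match is a description of the letters and shows no binding.

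Total counts ran from 10591067 to 14549357 per tumor and were lowest in with-peak replicate 3. Levels are CPM, counts scaled to library size with TMM factors. Each log2 fold change compares with-peak to before-peak tumors, with its SE, as fitted by edgeR. The epithelial markers Epcam, Krt8 and Krt18 were present in every tumor, with Krt8 at 1059 to 1716 CPM. In bulk tissue, fewer cells of a type and less RNA per cell cannot be told apart.

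**Figure D1:**
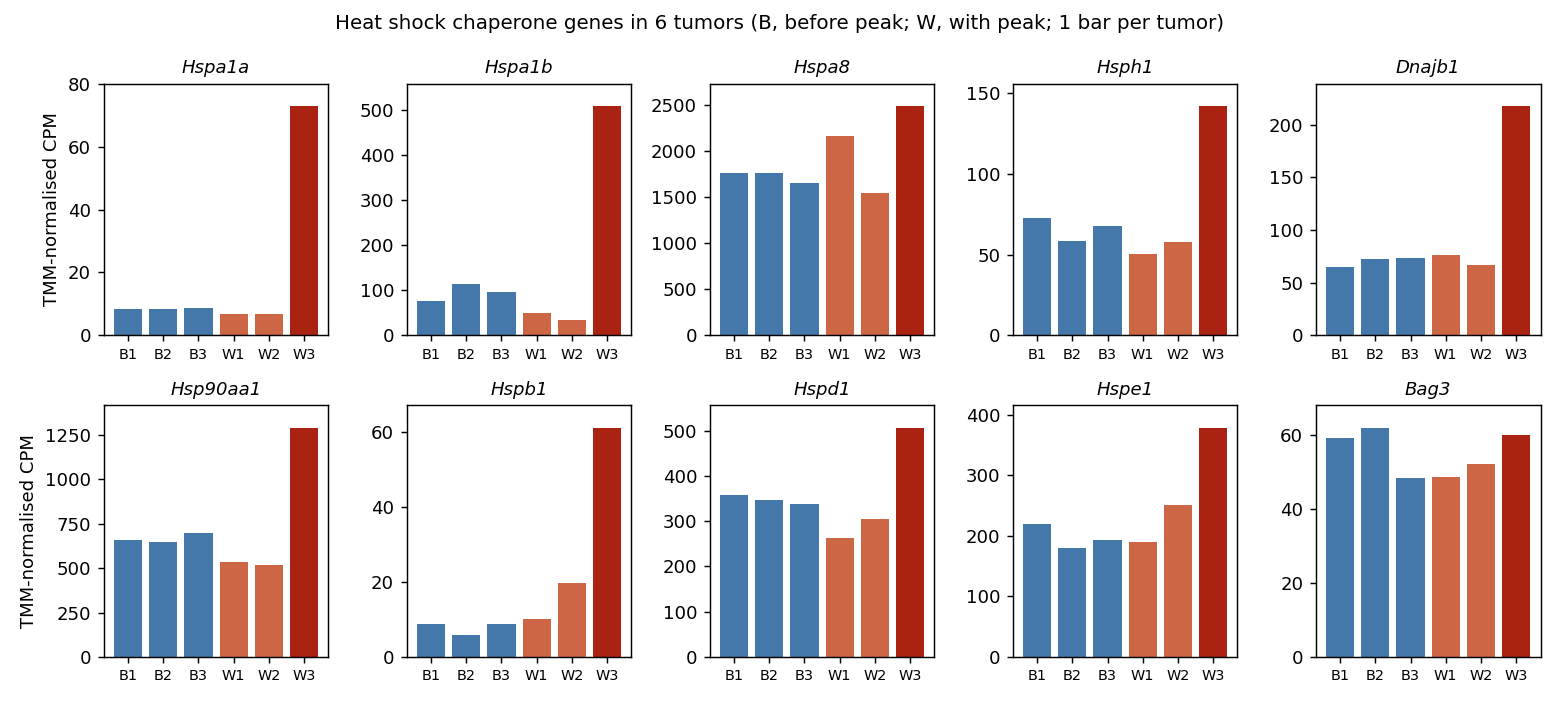
TMM-normalised CPM (vertical axes, from 0, a scale for each gene) of the 10 chaperone genes in each of the 6 tumors, with 1 bar per tumor, blue before the peak, orange and dark red with it. The dark red bar, with-peak replicate 3, is the highest in 9 of the 10 panels, and Bag3 is the exception.

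In with-peak replicate 3, 9 of the 10 genes had their highest value of the 6 tumors, and 4 were at least 2 times the highest of the other 5. Over all genes tested, 12.6% were highest in that tumor and 0.161%, or 27 genes, reached that factor of 2. Of the other 5 tumors, only before-peak replicate 2 held the highest value of any of these genes, that of Bag3. The 10 genes together took 0.28% to 0.334% of all counts in the other 5 tumors and 0.557% in with-peak replicate 3. Because the list was drawn with this tumor in view, these shares describe it and test nothing.

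Hspa1a and Hspa1b encode the stress-inducible HSP70, from neighbouring intronless copies (ENSMUSG00000091971, chromosome 17, 34969190 to 34972156, and ENSMUSG00000090877, chromosome 17, 34956436 to 34959238, GRCm38). Hspa1a was at 8.35, 8.30 and 8.50 CPM in before-peak replicates 1, 2 and 3, and at 6.66, 6.66 and 73.0 CPM in with-peak replicates, in the same order. It was thus nearly level across the before-peak tumors, lower in 2 with-peak tumors and 8.58 times the highest other value in the third of them, which ranked it at 1 among 16755 genes by that ratio. Hspa1b was at 74.6, 114 and 95.6 CPM before the peak and at 50.1, 33.1 and 507 CPM with it. The last value was 4.44 times the highest other one, while with-peak replicates 1 and 2 lay under every before-peak tumor. The log2 fold changes of the pair were 1.77 (SE 1.1) and 1.05 (SE 1.16). By limma-voom they were 0.66 and -0.027, so the direction of Hspa1b turned.

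The copies are close enough that reads can be hard to place. Of 2918 stretches of 50 bases in the Hspa1a transcript, 1716 (58.8%) also occur in that of Hspa1b, so how counts divide between them is uncertain. Hspa1b took 83.3% to 93.2% of the pair's CPM in the 6 tumors, 87.4% of it in with-peak replicate 3. Summed, the pair was at 83.0, 122 and 104 CPM before the peak and at 56.7, 39.8 and 579.7 CPM with it, so the sum had the same high and low tumors as Hspa1b. Without strand in the libraries, reads of Hspa1a and of the antisense gene Gm20481, which overlap by 564 exonic bases, cannot be separated either. Gm20481 was at 2.45 to 4.93 CPM in 5 tumors and at 40.6 CPM in with-peak replicate 3.

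Hspa8, the constitutive HSC70 (chromosome 9, 40800984 to 40810087), was the most abundant of the 10 genes, and its values were far closer together. It was at 1764, 1769 and 1657 CPM before the peak and at 2169, 1548 and 2489 CPM with it. With-peak replicates 1 and 3 were above every before-peak tumor and with-peak replicate 2 below them, so the groups overlapped. Its log2 fold change was 0.26 (SE 0.16).

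Among the cofactors of HSP70, Dnajb1, a J-domain protein that delivers substrates and starts ATP hydrolysis (chromosome 8, 83608193 to 83612653), stood at 64.7, 72.7 and 73.3 CPM before the peak and at 76.0, 66.2 and 217 CPM with it. Apart from with-peak replicate 3, at 2.86 times the next value, the 5 tumors lay within 64.7 to 76.0 CPM. Hsph1, the HSP110 nucleotide exchange factor (chromosome 5, 149614287 to 149636376), was at 72.8, 58.5 and 67.9 CPM before the peak and at 50.2, 57.5 and 142 CPM with it. With-peak replicates 1 and 2 were the lowest 2 tumors, and replicate 3 was 1.95 times the highest of the rest. The log2 fold changes were 0.77 (SE 0.49) for Dnajb1 and 0.32 (SE 0.42) for Hsph1, the latter 0.14 by limma-voom.

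Bag3, which links HSP70 and small heat shock proteins to autophagy (chromosome 7, 128523616 to 128546981), did not share the pattern. It was at 59.1, 61.7 and 48.2 CPM before the peak and at 48.5, 52.1 and 60.0 CPM with it. All 3 with-peak tumors lay inside the before-peak range, and the log2 fold change was -0.07 (SE 0.14). With-peak replicate 3 was at 0.972 times the highest of the other 5, where the remaining 9 genes were at 1.15 to 8.58 times.

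Hsp90aa1, the inducible cytosolic HSP90 (chromosome 12, 110690605 to 110702728), was at 659.7, 648 and 697 CPM before the peak and at 537, 518 and 1289 CPM with it. The before-peak tumors lay close together, with a mean of 668 ± 25.6 CPM (SD, n = 3). Again with-peak replicates 1 and 2 lay below that range, and replicate 3 was at 1.85 times the highest other value. The log2 fold change was 0.22 (SE 0.37), and 0.086 by limma-voom.

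Hspb1, the small heat shock protein HSP25 that holds unfolding proteins without ATP (chromosome 5, 135887919 to 135889563), was the only 1 of the 10 whose groups did not overlap. It was at 8.67, 5.87 and 8.75 CPM before the peak and at 10.03, 19.6 and 60.9 CPM with it. Every with-peak tumor was above every before-peak tumor, by a narrow margin in with-peak replicate 1. Over all genes tested, 8.13% had groups separated in this direction and 7.38% in the other, in which 0 of the 10 were. The log2 fold change of 1.95 (SE 0.70) was the largest of the 10.

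Hspd1 and Hspe1, the HSP60 and HSP10 subunits of the mitochondrial chaperonin (chromosome 1, 55077835 to 55088243 and 55088132 to 55091307), start head to head and share 112 exonic bases on opposite strands. Hspd1 was at 357, 347 and 337 CPM before the peak and at 262, 305 and 505 CPM with it. Hspe1 was at 219, 181 and 193 CPM before the peak and at 189.8, 251 and 378 CPM with it. The partners differed in with-peak replicate 2, which was below every before-peak tumor for Hspd1 and above every one for Hspe1. In with-peak replicate 3 they were 1.42 and 1.51 times the highest other value. Their log2 fold changes were 0.04 (SE 0.23) and 0.46 (SE 0.24), and that of Hspd1 was -0.017 when scaled by library size alone and -0.019 by limma-voom. Both have processed pseudogenes in the table, so how reads were shared with these is uncertain.

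Per kilobase of annotated exon, before-peak levels ordered the genes from Hspa8 at 402 ± 14.7 CPM per kilobase through Hsp90aa1 at 170.0 ± 6.51, Hspe1 at 134 ± 13.3, Hspd1 at 131 ± 3.67 and Hspa1b at 33.8 ± 7.05. Below these were Bag3 at 22.0 ± 2.78, Dnajb1 at 21.9 ± 1.499, Hsph1 at 9.14 ± 1.00, Hspb1 at 7.53 ± 1.59 and Hspa1a at 2.82 ± 0.0351 CPM per kilobase (SD, n = 3). Neighbours within their spread were Hspe1 and Hspd1, Bag3 and Dnajb1, and Hsph1 and Hspb1. In with-peak replicate 3 Hspa1b reached 181 CPM per kilobase, close to Hspd1 at 191 CPM per kilobase. Because the division of counts between Hspa1a and Hspa1b is uncertain, so are their separate places in this order. The exon length joins all annotated transcripts of a gene, so genes with long minor transcripts, such as Hsph1, come out low on this scale.

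**Figure D2:**
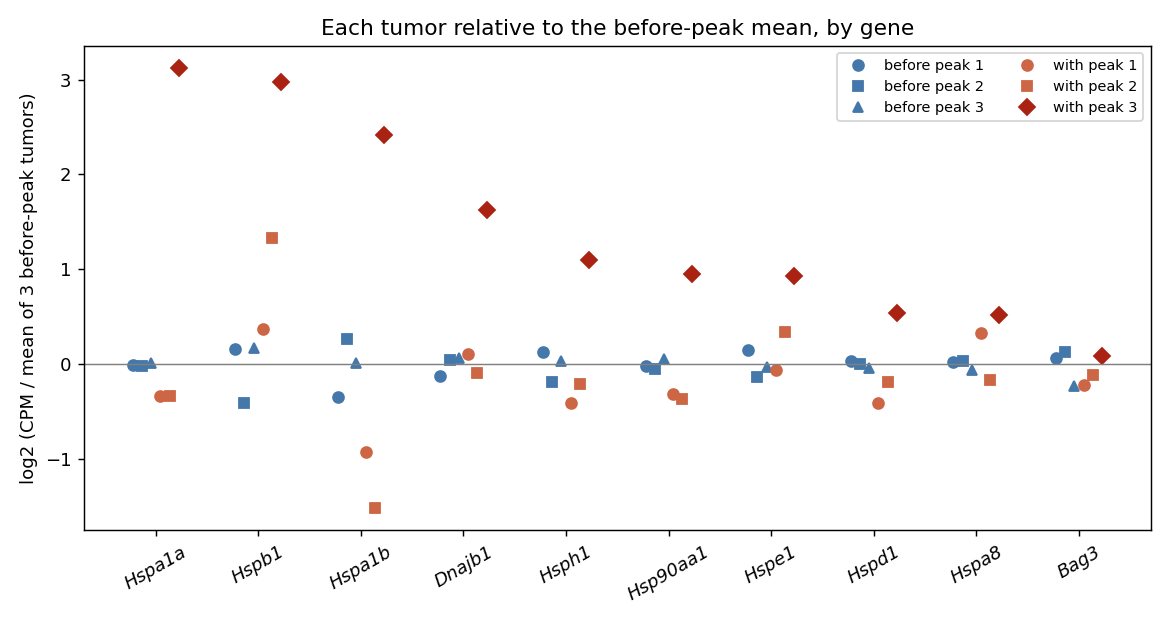
Log2 of each tumor's CPM over the mean of the 3 before-peak tumors (vertical axis) for each gene (horizontal axis), with 1 marker per tumor. Dark red diamonds, with-peak replicate 3, range from 8.70 times the before-peak mean for Hspa1a to 1.06 times for Bag3, while orange markers of the other with-peak tumors lie below 0 for Hspa1a, Hspa1b, Hsph1, Hsp90aa1, Hspd1 and Bag3.

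Compared as groups, the 3 with-peak and 3 before-peak tumors gave positive log2 fold changes for 9 of the 10 genes, where 47.7% of all genes had one, with a median of 0.39, against -0.02 over all genes tested. By edgeR's quasi-likelihood test with Benjamini-Hochberg adjustment, 0 of the 10 passed a threshold of 0.05, where 0% of all genes did. At an unadjusted p under 0.05 there was 1, Hspb1, where 9.5% of all genes passed, and DESeq2 called 0 of the 10 and 1.59% of all genes. DESeq2 gave no adjusted p for Hspa1a and Hspa1b, so it could call neither. The unadjusted passes by edgeR were 1025 higher and 567 lower genes, and 768 and 1020 when scaled by library size alone, which moved the median of all genes to -0.07.

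Without with-peak replicate 3, the remaining 2 with-peak tumors against the 3 before-peak tumors gave negative log2 fold changes for 6 of the 10, where 51.3% of all genes had one, with a median of -0.22; the median over all genes tested was -0.01. Both remaining with-peak tumors lay below all before-peak tumors for Hspa1a, Hspa1b, Hsph1, Hsp90aa1 and Hspd1, that is for 5 of 10 genes, where 13.7% of all genes did. Only Hspb1 lay above in both, where 13.1% did. The log2 fold change of Hspa1b turned from 1.05 to -1.19 (SE 0.24), that of Hspa1a to -0.33 (SE 0.26) and that of Hsp90aa1 to -0.34 (SE 0.11). Hspd1 and Hsph1 turned likewise, to -0.29 (SE 0.12) and -0.30 (SE 0.15). Hspb1 stayed positive at 0.93 (SE 0.35), Hspe1 at 0.16 (SE 0.16), Hspa8 at 0.10 (SE 0.15) and Dnajb1 at 0.02 (SE 0.13), and Bag3 was at -0.16 (SE 0.15). By edgeR 0 of the 10 passed after adjustment, as did 0% of the 17258 genes of that fit. At an unadjusted p under 0.05 there were 3, Hspa1b, Hsp90aa1 and Hspb1, beside 9.22% of all genes. The lower ones were Hspa1b and Hsp90aa1, a direction in which 3.41% of all genes passed.

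**Figure D3:**
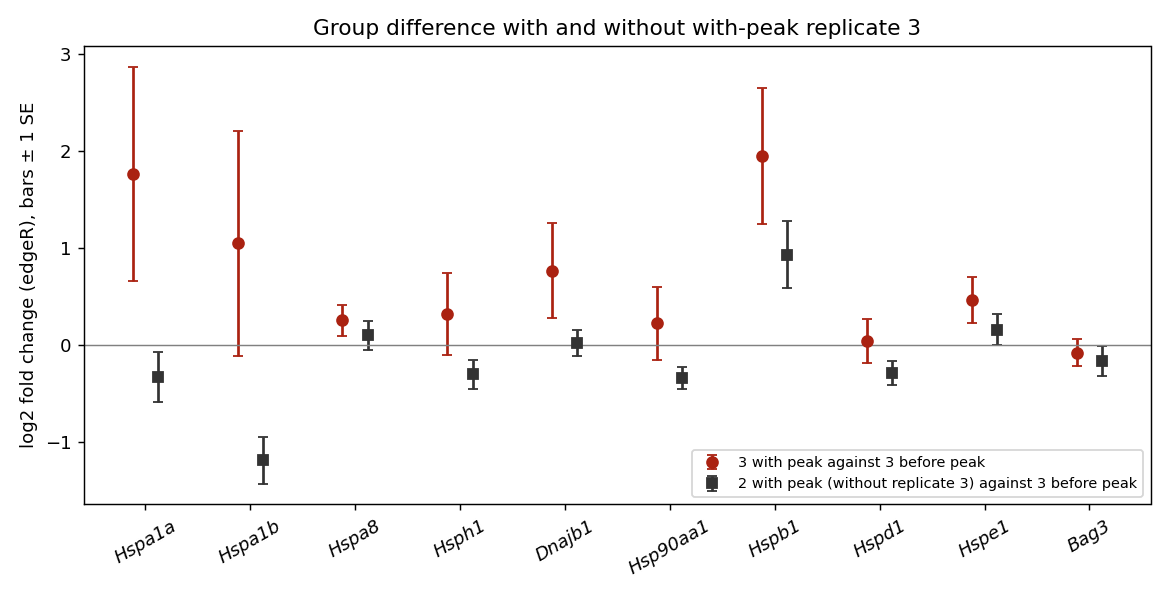
Log2 fold change from edgeR (vertical axis, bars of 1 SE) for the 10 genes, from all 6 tumors (red circles) and without with-peak replicate 3 (black squares). Leaving out that tumor moves Hspa1b from 1.05 to -1.19, and 5 of the genes change sign.

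Beside these, 13 lists held other chaperones and their regulators, proteasome subunits, integrated stress response genes and immediate early genes, and their 182 tested genes included none at 2 times the highest other value in with-peak replicate 3. By edgeR 0 of the 182 passed in either direction, 25 passed at an unadjusted 0.05, beside 9.5% of all genes, and with DESeq2 there were 3, beside 1.59% of all genes: the small heat shock genes Cryab and Hspb7 and the immediate early gene Klf4. In with-peak replicate 3, 69 of the 182 (37.9%) had their highest value, where 12.6% of all genes did, the share to set beside each such count by list.

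Among cytosolic J-domain proteins, 5 of 16 were highest in with-peak replicate 3. Dnaja4 was at 15.8 to 23.2 CPM in the other 5 tumors and at 40.2 CPM there, and Dnaja1, a widely expressed HSP70 partner, at 182 to 201 CPM and 302 CPM. On opposite strands, Dnaja4 shares 1581 exonic bases with Wdr61 and Dnaja1 shares 608 with Smu1, where reads cannot be told apart. Of the 8 HSP70 and HSP110 relatives only Hspa4l was highest in that tumor, at 70.0 CPM (70.04) against 43.5 to 64.8 CPM in the others. Hspa1l, the neighbour of Hspa1a on the opposite strand, went the other way, from 2.89 to 3.99 CPM before the peak to 1.19, 0.862 and 1.94 CPM in the with-peak tumors, a log2 fold change of -1.30 (SE 0.44). Reads of Hspa1l and of the antisense gene Gm10501, which share 1778 exonic bases, cannot be told apart.

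Of 15 HSP90 genes and cochaperones, 4 were highest in with-peak replicate 3. Hsp90ab1, the constitutive HSP90, was at 2406 to 3102 CPM in the other 5 tumors and at 3865 CPM there, a ratio of 1.25 where that of Hsp90aa1 was 1.85. The immunophilin Fkbp4 had a ratio of 1.17. Ppid, another immunophilin, was at 93.0 to 111 CPM before the peak and at 74.9, 76.1 and 96.7 CPM with it. The median log2 fold change of this list was -0.07, and it was -0.11 without with-peak replicate 3.

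None of the tested heat shock factors had its highest value in with-peak replicate 3. Hsf1, the main stress-activated factor, was at 42.0, 37.0 and 42.2 CPM before the peak and at 30.3, 35.3 and 39.8 CPM with it. Its log2 fold change was -0.20 (SE 0.14), and -0.30 (SE 0.16) without with-peak replicate 3. With-peak replicates 1 and 2 lay below every before-peak tumor, as they did for 13.7% of all genes. In with-peak replicate 3 the value of Hsf1 was 0.942 times the highest other one. Of 8 tested factors and regulators, 1 was highest in that tumor, Ywhae, at 1.03 times the next. Among 12 other genes linked to HSF1, the polyubiquitin gene Ubb was at 721 to 816 CPM before the peak and at 883, 937 and 1059 CPM with it, a log2 fold change of 0.34 (SE 0.11), with groups that did not overlap. Of the 12, 2 had groups separated higher with the peak and 1 lower, where 8.13% and 7.38% of all genes did. In with-peak replicate 3 the largest ratios of this list were those of Chac1, at 1.32, and Zfand2a, at 1.21. Chac1 is also in the integrated stress response list. Its level was low, at 3.45 to 6.03 CPM in the other tumors and 7.95 CPM in with-peak replicate 3.

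Mitochondrial chaperones other than Hspd1 and Hspe1 had ratios up to 1.06, with Grpel1 the highest, and Hspa9, the mitochondrial HSP70, was at 317 CPM in with-peak replicate 3, within the 275 to 329 CPM of the other tumors. The TRiC chaperonin and prefoldin list had a median log2 fold change of 0.03 and a highest ratio of 1.12, that of Cct4. In the endoplasmic reticulum, Hspa5, the BiP chaperone, was at 1045 to 1166 CPM in 5 tumors and at 1629 CPM in with-peak replicate 3, a ratio of 1.40. Next in that list came Creld2 at 1.16 and Hsp90b1 at 1.06.

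**Figure D4:**
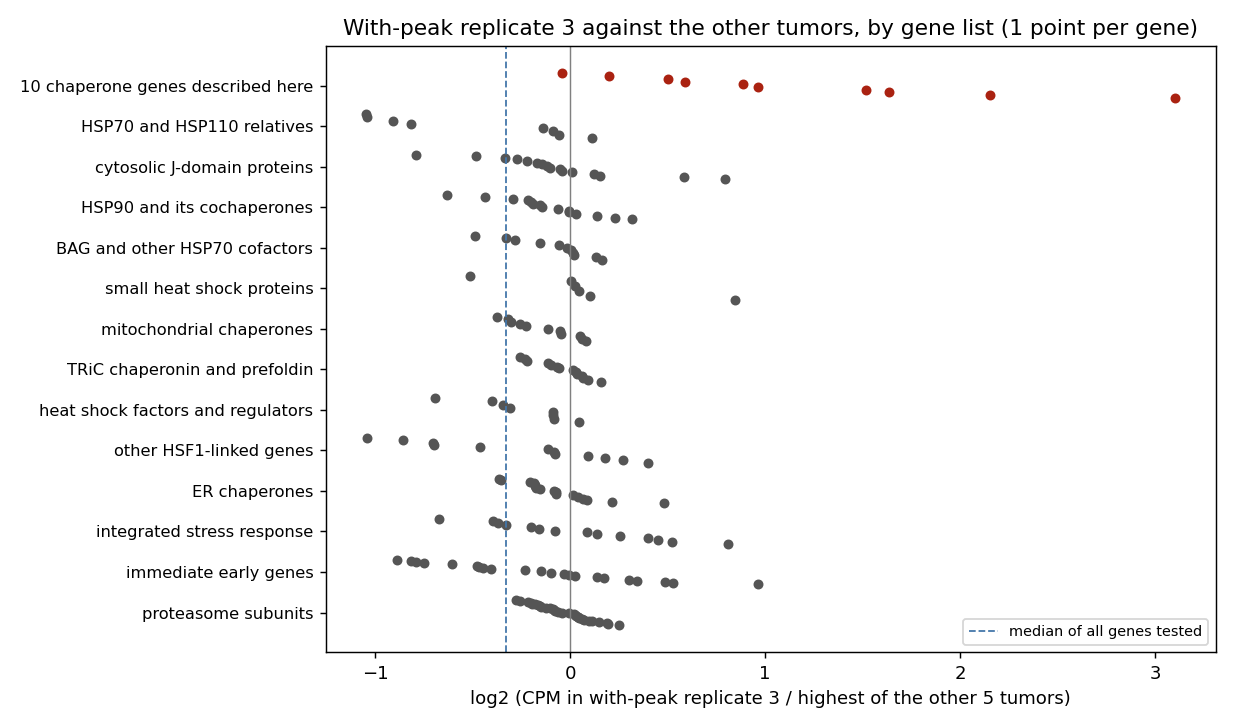
Log2 of CPM in with-peak replicate 3 over the highest of the other 5 tumors (horizontal axis) for each tested gene, by list (vertical axis), the 10 chaperones in red. The dashed line marks the median ratio over all genes tested, 0.798, and no gene of the other 13 lists reaches a ratio of 2.

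Of 14 integrated stress response genes, 7 were highest in with-peak replicate 3, and the median ratio of the list was 1.00, against 0.798 over all genes tested. Its largest ratios were those of Atf3, Asns and Ppp1r15a, while Sesn2, at 0.627, had the smallest. Atf3 was at 15.5 to 32.3 CPM in the other 5 tumors and at 56.7 CPM there, Asns, of amino acid deprivation, at 27.6 to 37.6 and 54.0 CPM, and the phosphatase subunit Ppp1r15a at 13.6 to 19.8 and 27.1 CPM. Among 22 immediate early genes, 8 were highest in with-peak replicate 3, led by Dusp1 at 78.9 CPM against 24.8 to 40.4 CPM, then Jun at 248 CPM against 129 to 172 CPM and Fosb at 16.9 CPM against 7.70 to 12.1 CPM. Egr1, at 47.1 CPM, was inside the range of the others. The median ratio of this list was 0.918, and Ier3, at 0.540, had the smallest. Ier3 was at 72.3 CPM in with-peak replicate 3, below every other tumor. Jun overlaps the antisense gene Junos by 232 exonic bases. Their part in the chaperone pattern was not tested.

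Of 6 tested genes other than Hspb1 that were listed as small heat shock genes, edgeR called 0 and DESeq2 called Cryab and Hspb7. Cryab, the alpha-B crystallin of muscle and lens, was at 20.1, 30.5 and 17.1 CPM before the peak and at 39.8, 43.8 and 44.6 CPM with it, a log2 fold change of 0.92 (SE 0.21). Hspb7, a small heat shock protein of heart and muscle, was at 0.722, 0.235 and 0.167 CPM, from 9, 3 and 2 counts, before the peak and at 2.60, 4.86 and 8.73 CPM with it, a log2 fold change of 3.80 (SE 0.66). Of the 6, 3 had all with-peak tumors above all before-peak tumors, where 8.13% of all genes did, the third being Hspb2, whose 252 exonic bases shared with Cryab leave their reads hard to separate. The groups overlapped for Hspb6, Hspb8 and Hspb11, with log2 fold changes of 0.39 (SE 0.25), 0.17 (SE 0.17) and 0.04 (SE 0.20). All 6 kept a positive log2 fold change without with-peak replicate 3, with a median of 0.46.

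Skeletal muscle genes matched these values in part. The summed CPM of 18 muscle markers was 361, 112 and 80.3 before the peak and 342, 1958 and 1908 with it, ranges of 80.3 to 361 and 342 to 1958, with no marker at 0. With-peak replicates 2 and 3 were highest in the muscle sum and in Hspb1, Hspb7 and Cryab. With-peak replicate 1 lay below before-peak replicate 1 in the muscle sum but above it in those 3 genes. The part of muscle in those 3 genes was not tested. The summed CPM of Hspa1a and Hspa1b was 39.8 in with-peak replicate 2, the lowest of the 6 tumors, and 579.7 in replicate 3. Red cell genes, 7 of 8 listed with a row, summed to 137 to 250.5 CPM before the peak and to 277, 1457 and 2154 CPM with it, without overlap. The part of red cells in any result was not tested. Of 11 cell type marker lists, the erythroid list was the only 1 whose sum was highest in with-peak replicate 3. Summed CPM of 14 macrophage markers was 2532 to 3893 in before-peak tumors and 4663 to 6433 in with-peak tumors, with no overlap and no marker at 0, and with-peak replicate 2 was the highest. Mitochondrial ribosomal RNA took 0.0313% to 0.0456% of counts in the former and 0.0587% to 0.0655% in the latter, also without overlap. The part of either in the group differences of Hspb1, the small heat shock genes or the proteasome genes was not tested. Carcinoma epithelial markers summed to 3858 to 5049.9 CPM before the peak and to 3869, 3210 and 4687 CPM with it. Only with-peak replicate 2 lay below the before-peak range. Proliferation markers summed to 1351 to 1526 CPM before the peak and to 1160, 1234 and 1393 CPM with it. The part of epithelial content or proliferation in the chaperone values was not tested.

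**Figure D5:**
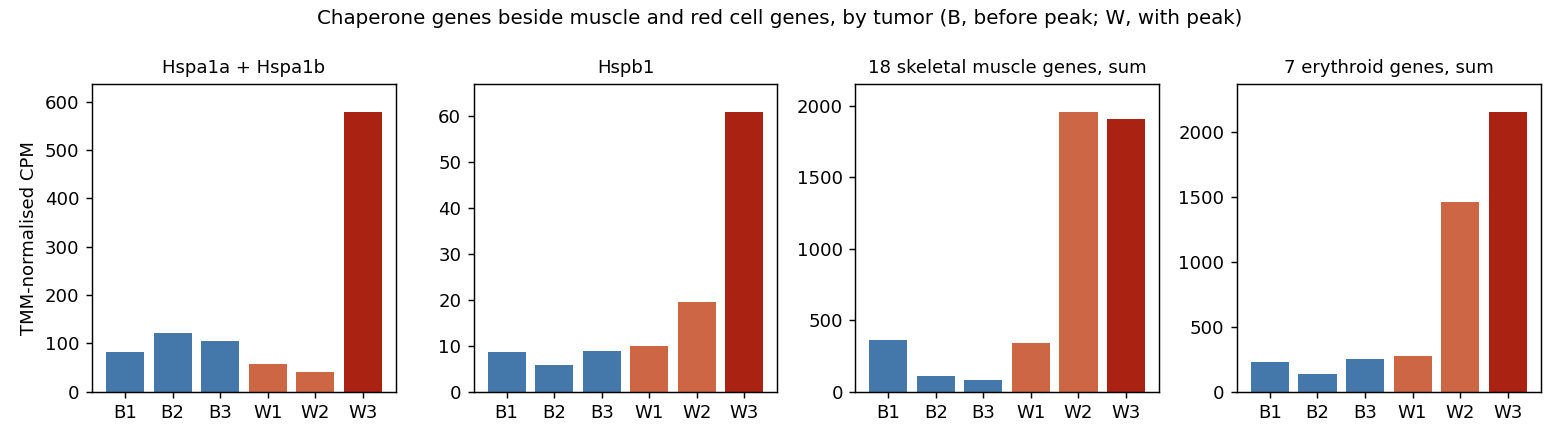
Summed or single TMM-normalised CPM (vertical axes, from 0) in each tumor for Hspa1a with Hspa1b, for Hspb1, for 18 skeletal muscle genes and for 7 erythroid genes, with 1 bar per tumor. With-peak replicates 2 and 3 are alike in the muscle sum, at 1958 and 1908 CPM, but differ in the Hspa1a and Hspa1b sum, at 39.8 and 579.7 CPM.

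Among 12535 other genes with a mean of at least 5 CPM, those whose log2 CPM over the 6 tumors lay closest to the mean of the 10 chaperones were Dnaja1 (Pearson r = 0.995), Hspa5 (0.990), Gm20481 (0.987, the antisense gene above), Gtf2h1 (0.978), Gm7964 (0.977), Trip4 (0.977), Naa50 (0.976) and Slc3a2 (0.975). These r values describe 6 tumors of which 1 carries most of the spread. Trip4 was at 33.0 CPM in with-peak replicate 3 and at 24.99 to 26.7 CPM in the other 5, and Slc3a2 at 145 CPM against 116 to 124 CPM. Between pairs of the 10 chaperones, r over the same tumors was 0.164 to 0.983 with a median of 0.793, and without Bag3 the lowest was 0.470.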

How the data were processed

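Polyadenylated RNA of snap-frozen 4T1 tumors was sequenced as paired-end, unstranded libraries, per the labels' protocols. The authors deposited raw counts per gene; FastQC, STAR and the mm10 build are named in the submitters' processing notes, without versions, with the read counter and annotation not given in the sources used here. Of 23508 rows, 23479 matched GENCODE M21 (GRCm38), the source of symbols and coordinates. No 2 replicates looked like 1 library deposited more than once, since chi-square values between them, divided by the degrees of freedom, were 18.8 to 31.9. Counts were analysed with edgeR 4.0.16 in R 4.3.3: filterByExpr (minimum count 10, minimum total 15), TMM, robust quasi-likelihood test, two-sided, Benjamini-Hochberg adjustment over all 16755 genes; the fit was tested on simulated data. SE is the log2 fold change divided by the square root of F. Alternatives were other scalings and filters, DESeq2 1.42.0, limma-voom (limma 3.58.1), a replicate block and each tumor left out. The members, gene lists and naming rule were chosen with earlier results of these data known. Named were all members, from each list up to 3 genes with the largest ratio of with-peak replicate 3 to the highest other tumor and up to 2 with the largest change without that tumor, some factors by name, and the 8 genes closest in profile. From these the text gives a selection. Egr1, Ier3, Sesn2, Hspb6, Hspb11 and the antisense genes were chosen after their values were seen. Promoter windows are from RefSeq (GRCm38.p6), those of chromosome 18 left out. The low depth of some genes, such as Hspb7, adds counting error.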

Additional observations from a re-analysis of the deposited data

How the results depend on the processing

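Scaling by RLE, by upper quartile or by library size alone, a filter of 1 CPM in 3 tumors, and limma-voom each called 0 genes in either direction. Testing all genes unfiltered gave 26 higher and 3 lower, and DESeq2 gave 242 and 24. Leaving out 1 tumor gave 0 to 17 higher and 0 lower, with 17, 13 and 9 when before-peak replicate 2, before-peak replicate 3 or with-peak replicate 1 was dropped. The cause was not tested. Of the 10 chaperones 0 were called in any of these settings, though DESeq2 gave no adjusted p for Hspa1a and Hspa1b and could call neither. The 9 and 4 counts for with-peak replicate 3 were the same under every scaling and filter. The median log2 fold change of the 10 was 0.19 (limma-voom) to 0.40 (DESeq2) on all 6 tumors and -0.22 to 0.63 with 1 tumor left out, negative only without with-peak replicate 3; there Hspa1a, Hspa1b, Hsph1, Hsp90aa1 and Hspd1 also change sign. Hspa1a was at 0.66 and Hspa1b at -0.027 by limma-voom, and Hspd1 at -0.017 with library size alone and -0.019 by limma-voom. The replicate numbers share no stated source, and deviations of same-numbered tumors correlated at -0.063, -0.100 and 0.028. With the replicate block 1 gene was called higher and 0 lower, the median of the 10 was 0.20, Hspa1a was at 0.79, Hspa1b at -0.061 and Hspd1 at -0.017. Leaving out single tumors gave log2 fold changes of -0.33 to 2.24 for Hspa1a, -1.19 to 1.55 for Hspa1b, -0.30 to 0.59 for Hsph1, -0.34 to 0.45 for Hsp90aa1 and -0.29 to 0.23 for Hspd1. Library size alone shifted the median of all genes from -0.02 to -0.07. Genes at a few counts per tumor, such as Hspb7 before the peak, have the largest counting error.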

Other observations

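The 27 genes at 2 times or more the highest other value in with-peak replicate 3 included, beside the chaperones Hspa1a, Hspa1b, Hspb1 and Dnajb1 and the antisense gene Gm20481, genes of striated muscle, named here after their values were seen. Csrp3, a muscle LIM protein, was at 4.27 CPM there and at 0.0833 to 1.25 CPM in the other 5 tumors. Myh2 and Myh1, myosin heavy chains of fast fibers, were at 17.6 and 23.96 CPM, against at most 6.19 and 11.1 CPM elsewhere.

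Proteasome subunits, which degrade proteins that chaperones fail to refold, had a positive log2 fold change in 29 of 31 genes, where 47.7% of all genes had one, with a median of 0.12, and in 26 of 31 without with-peak replicate 3, with the same median of 0.12. By edgeR 0 of the 31 passed after adjustment, 6 passed unadjusted at 0.05, beside 9.5% of all genes, and DESeq2 called 0, beside 1.59%. All with-peak tumors lay above all before-peak tumors for 10 of them, where 8.13% of all genes did. The sums of macrophage and of red cell markers and the mitochondrial ribosomal RNA share separated the groups likewise. Psma7 was at 218 to 275 CPM before the peak and at 276 to 351 CPM with it.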
